A study of Homo sapiens with 12 samples.

Results

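The NF-kB subunits and IkB proteins were followed in K562, an established chronic myeloid leukaemia cell line, by RNA sequencing of 12 libraries. The 10 genes were the 5 subunits NFKB1, NFKB2, RELA, RELB and REL and the 5 IkB proteins NFKBIA, NFKBIB, NFKBIE, NFKBIZ and BCL3. Each gene was taken by its symbol, and where a symbol stood on several loci the locus with the highest mean level was used. This gave 10 loci of 38272 in the table, and all 10 passed the filter on low values described below. The control group was mock transfected with a non-targeting siRNA (SiCt) and a non-targeting GapmeR (GapCt). A GapmeR is a chimeric antisense strand by which RNase H cuts the RNA it pairs with. In the SG group the siRNA Si623 and the GapmeR Gap01 targeted a lncRNA, a long RNA that codes for no protein. TNF libraries came from mock-transfected cells that were then exposed to 20 ng/mL of the cytokine tumour necrosis factor alpha (TNF) over 6 hours. TNFSG libraries came from cells with the targeted transfection and that same exposure. Each of the 4 groups held 3 libraries labelled as biological replicates, and no label says more about how the cultures were kept apart, so p-values measure the spread between these libraries. The targeted groups got 1 siRNA together with 1 GapmeR, so the effects of the pair cannot be told apart from those of either agent, and TNF was given at 1 dose and read at 1 time.

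NF-kB transcription factors are dimers of the 5 subunits. In resting cells the classical IkB proteins hold these dimers in the cytoplasm, and TNF sets off a kinase complex that marks IkB for destruction and frees the dimers to enter the nucleus. Several genes of the system are themselves NF-kB targets, so a cell that has met TNF makes new inhibitor and new subunit RNA, which is the textbook negative and positive feedback of the pathway.

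Values are FPKM (fragments per length of the locus and per fragments mapped in its library), given as mean ± SD with n = 3 per group, and FPKM is a scale per length on which levels of different genes can be compared. Read totals were not in the file, and from the steps that single reads leave in low values the relative depths ran from 0.787 to 1.205 with the first control library as 1. FPKM sums ran from 925955 to 1083480, and each library's median correlation with the others ran from 0.824 to 0.863. As the check of the targeted transfection, the MIR146A locus read 25.0 ± 3.48 FPKM in TNF and 5.44 ± 2.03 in TNFSG, and at 0.363 ± 0.205 in control and 0.0399 ± 0.0347 in SG. Whether that locus is the targeted lncRNA is not stated in the labels. Of 10 erythroid markers 9 were above 1 FPKM in all libraries, where HBG2 and HBE1 had identical values from 1 shared locus. GATA1 stood at 103 to 137 FPKM. With the shared locus counted once, the list summed to 2314 to 5297 FPKM in control and 2191 to 5026 in TNF (2304 to 4424 in SG and 2082 to 4109 in TNFSG). Of these markers, named after their values were seen, NFE2 averaged 99.1 FPKM in control and 50.0 in TNF (100.1 and 44.8 after the targeted transfection), and KLF1 93.9 and 63.2 (87.3 and 54.5). Some markers of other cell types were listed too: the monocyte list summed to 249 to 474 FPKM in control and 577 to 933 in TNF, and without and with TNF after the targeted transfection to 12.3 to 673 and 405 to 481, most of it CD163, with CSF1R and FCGR3A not among the named loci. Fibroblast markers summed to 23.9 to 56.3 FPKM in control and 55.1 to 1178 in TNF, and to 21.3 to 45.3 in SG and 65.2 to 444 in TNFSG, with COL1A2 between 0 and 1098 FPKM. Lymphoid, epithelial and endothelial markers summed to 16.7 to 41.2, 64.0 to 71.3 and 21.7 to 47.4 FPKM in control. In TNF these sums were 16.0 to 50.3, 54.3 to 74.4 and 26.5 to 32.6 FPKM. They were 30.1 to 39.6, 61.7 to 70.8 and 15.9 to 46.2 FPKM in SG. In TNFSG they were 33.3 to 48.9, 57.0 to 71.7 and 41.2 to 51.4 FPKM. Monocyte sums did not overlap between control and TNF, but those of SG and TNFSG did. Fibroblast sums overlapped in part between control and TNF and did not overlap between SG and TNFSG. Beside CD163, the monocyte marker CD14 averaged 8.23 FPKM in control and 6.67 in TNF, and 2.14 in SG and 3.13 in TNFSG. The part of these marker values in the results below was not tested.

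Sequence of the members' start sites was read for the kappa B consensus, the short motif that NF-kB dimers bind. RefSeq promoter windows (GRCh38.p14, from 250 bases before to 50 bases after an annotated start) were matched by symbol for 8 of the 10 genes, and RELB and NFKBIE had no entry. The consensus of 10 bases, searched on both strands, was in the windows of 7 of the 8 genes, and RELA was the gene without a match. By gene, 7.09% of all 27305 genes had a match, and 8.77% of the 9575 genes with a window and a tested locus of a single name. Of these, 230 genes were higher in TNF than in control, and 29.1% of the 230 had a match. By window it was in 9 of 14 (64.3%), against 5.91% of all 35116 windows. The share was 6.62% of the 13936 windows of the tested genes and 21.6% of the 348 windows of the genes higher in TNF. These wider sets include the windows of the 7 genes themselves. Matches of the 7 genes are shown because they put the motif of the factor beside genes that encode the factor and its inhibitors. Capitals mark the match and any match that overlaps it, and each sequence runs 5′ to 3′ on the strand of the gene.
NFKB1, chr4:102501300-102501329, plus strand: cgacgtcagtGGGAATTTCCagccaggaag
NFKB2, chr10:102394462-102394490, plus strand: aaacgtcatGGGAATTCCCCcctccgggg
NFKB2, chr10:102395674-102395703, plus strand: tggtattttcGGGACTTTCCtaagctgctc
REL, chr2:60881518-60881546, plus strand: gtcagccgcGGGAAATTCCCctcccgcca
NFKBIA, chr14:35404811-35404840, minus strand: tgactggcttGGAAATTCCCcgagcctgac
NFKBIB, chr19:38899932-38899960, plus strand: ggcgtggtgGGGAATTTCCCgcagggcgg
NFKBIZ, chr3:101827757-101827786, plus strand: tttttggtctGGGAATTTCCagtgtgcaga
BCL3, chr19:44748700-44748729, plus strand: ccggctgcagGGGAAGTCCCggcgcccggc
Distances are to the start of the window that held the match. The match lay 49 bases before that start in NFKB1, 47 in REL, 81 in NFKBIA, 28 in NFKBIB and 223 in NFKBIZ. In BCL3 it lay 2 bases after the start. Other windows of NFKB1, NFKB2 and NFKBIB, at other starts, held no match. In NFKB2 the matches shown lay 107 and 21 bases before 2 different starts, and that gene and NFKBIZ held further matches that are not shown. In GENCODE (hg38) the genes span 102501329 to 102617302 on chromosome 4 (NFKB1), 102394110 to 102402529 on chromosome 10 (NFKB2), 65653596 to 65663094 on chromosome 11 (RELA) and 60881521 to 60931610 on chromosome 2 (REL). NFKBIA spans 35401511 to 35404749 on chromosome 14. NFKBIB (38899700 to 38908893), BCL3 (44747705 to 44760044) and RELB (45001430 to 45038198) are all on chromosome 19. By these spans the matches shown for NFKB2, REL, NFKBIB and BCL3 lie inside the gene. The table gives no coordinates of its own for these loci. A match describes letters in these windows and is not evidence that a factor was bound there.

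TNF was compared with control to measure the response of mock-transfected cells. Of the 10 members 8 rose, and none fell. The precursor subunits NFKB1 and NFKB2, the partner subunit RELB, the inhibitor NFKBIA and the nuclear IkB protein BCL3 rose most, by 4.50 to 19.3 times in mean FPKM. REL, NFKBIB and NFKBIE rose by 1.81 to 2.13 times. RELA, the main transactivating subunit, and NFKBIZ did not pass the threshold. The test was limma on log2(FPKM + 1) in 1 fit over all 12 libraries, with loci of at least 1 FPKM in at least 3 libraries (32866) and Benjamini-Hochberg adjustment over all of them at 0.05. Log2 changes below are on this scale, which understates changes of low values, and their errors are SE. Of all loci tested 1.18% rose (387), and the median log2 change was -0.02, against 1.51 for the 10 members. Libraries were made from whole cultures, so more RNA per cell and more cells that respond cannot be told apart.

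NFKB1 encodes p105, the precursor of the subunit p50. It read 11.6, 13.9 and 10.4 FPKM in control and 56.7, 54.5 and 50.3 FPKM in TNF. The lowest TNF library was well above the highest control library, and the log2 change was 2.09 ± 0.13 with an adjusted p of 3.39e-05. NFKB2 encodes p100, precursor of p52, which pairs with RELB in the non-canonical pathway. It read 6.46, 4.93 and 3.65 FPKM in control and 84.3, 52.3 and 54.2 FPKM in TNF. The first TNF library stood above the other two, and the log2 change was 3.42 ± 0.25 with an adjusted p of 0.000103.

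RELB read 2.04, 3.23 and 1.77 FPKM in control and 49.9, 45.2 and 40.8 FPKM in TNF. Of the 10 members it had the largest fold in mean FPKM (19.3 times) and the largest log2 change (3.81 ± 0.21, adjusted p 1.45e-05). REL, the subunit c-Rel, was the lowest member under TNF. It read 4.21, 4.58 and 3.66 FPKM in control and 8.79, 9.27 and 8.48 FPKM in TNF. Its log2 change was 0.94 ± 0.13 with an adjusted p of 0.00673, and this call was lost when only the groups compared entered the fit (0.0551).

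RELA encodes p65. It read 25.4, 28.2 and 25.6 FPKM in control and 34.2, 31.8 and 35.9 FPKM in TNF. The groups did not overlap, and the log2 change was 0.35 ± 0.07 with a 95% interval from 0.19 to 0.52. The adjusted p was 0.057 over all loci tested and 0.0246 when loci had to reach 5 FPKM, so the call depends on the filter on low values. The interval leaves RELA's change well under those of NFKB1, NFKB2 and RELB, whose intervals began at 1.80, 2.86 and 3.34.

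NFKBIA encodes IkB alpha, the inhibitor that is destroyed and remade in each round of NF-kB activation. It read 11.8, 11.4 and 9.44 FPKM in control and 143, 139 and 133 FPKM in TNF. Its log2 change of 3.56 ± 0.10 had the fourth lowest p of all loci tested (adjusted p 1.29e-07). NFKBIB, or IkB beta, read 29.7, 33.8 and 34.1 FPKM in control and 55.9, 59.6 and 60.6 FPKM in TNF. It started from 32.5 ± 2.48 FPKM, above NFKBIA at 10.9 ± 1.27, and its log2 change was 0.83 ± 0.08 with an adjusted p of 0.000536. NFKBIE, or IkB epsilon, is read from a locus that also carries the name SLC35B2, a nucleotide sugar transporter gene. That locus read 35.3, 37.6 and 32.8 FPKM in control and 74.6, 60.6 and 61.7 FPKM in TNF. Its log2 change was 0.88 ± 0.10 with an adjusted p of 0.00137. In GENCODE (hg38) NFKBIE spans 44258166 to 44265788 on chromosome 6 and SLC35B2 lies 275 bases from it on the same strand, so how much of the change belongs to NFKBIE cannot be separated here.

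BCL3 and NFKBIZ encode IkB proteins of the nucleus, which bind subunits at target genes and can raise or lower their activity. BCL3 read 2.06, 1.16 and 1.20 FPKM in control and 24.1, 21.6 and 19.0 FPKM in TNF. All TNF libraries were far above control, and the log2 change was 3.20 ± 0.17 with an adjusted p of 1.2e-05. The locus chosen for NFKBIZ carries the name NXPE3 as well, a neighbour 598 bases upstream of NFKBIZ on the same strand of chromosome 3. That shared locus read 15.2, 14.5 and 8.59 FPKM in control and 25.6, 25.4 and 17.4 FPKM in TNF. Its groups did not overlap, but the third library was the lowest in both, and the log2 change of 0.81 ± 0.23 did not pass (adjusted p 0.158, 95% interval 0.30 to 1.32). More than 1 locus is named for NFKBIZ alone, and the one with the highest mean was chosen after its values were seen. It read 4.27, 3.66 and 6.51 FPKM in control and 15.9, 13.1 and 17.5 FPKM in TNF. There the log2 change was 1.53 ± 0.19 with an adjusted p of 0.00279. NFKBIZ thus passed by this locus and by the sum of its loci (1.16, adjusted p 0.000568) but not by the shared one. The lower locus named for NFKBIZ alone also passed (1.51, adjusted p 0.00565).

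**Figure D1:**
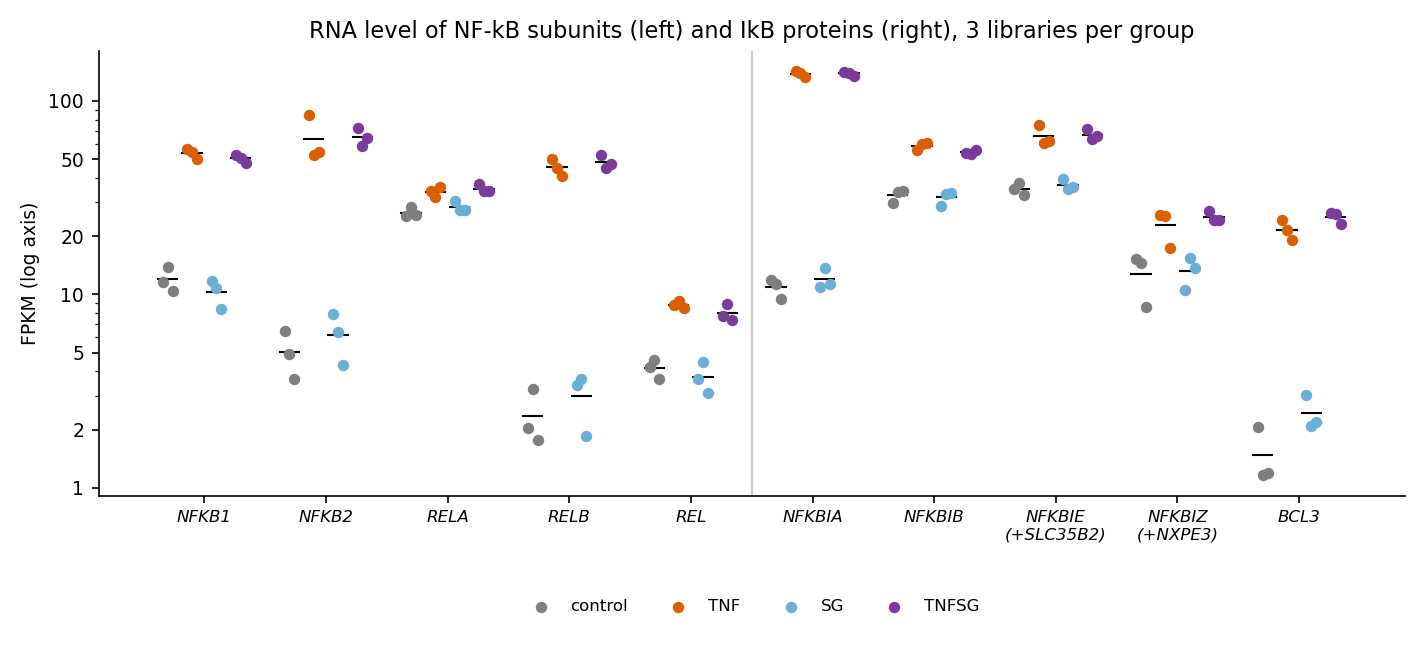
FPKM on a log axis for each member, with 1 point per library, a bar at the mean and 3 libraries per group in control, TNF, SG and TNFSG. Points of TNF and TNFSG lie above those of control and SG for all 10 members, by the least for RELA (26.4 to 34.0 FPKM from control to TNF). RELA and the shared locus of NFKBIZ did not pass the threshold, and the share of all loci separated in this way is not given here.

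TNFSG against SG asked whether the same genes respond after the targeted transfection. Again 8 of the 10 members rose and none fell, beside 1.37% of all loci (449), and RELA and NFKBIZ were again the exceptions. NFKB1 read 11.8, 10.7 and 8.40 FPKM in SG and 52.8, 51.0 and 48.0 FPKM in TNFSG, a log2 change of 2.20 ± 0.13 (adjusted p 2.43e-05). NFKB2 read 7.93, 6.37 and 4.31 FPKM in SG and 72.4, 58.4 and 64.0 FPKM in TNFSG, a log2 change of 3.22 ± 0.25 (0.000151). RELB read 3.40, 3.64 and 1.86 FPKM in SG and 52.4, 45.0 and 47.3 FPKM in TNFSG, a log2 change of 3.66 ± 0.21 (1.85e-05). For these 3 subunits the mean FPKM rose by 4.90, 10.5 and 16.2 times, and no library of one group reached the range of the other. REL read 3.64, 4.47 and 3.08 FPKM in SG and 7.76, 8.92 and 7.37 FPKM in TNFSG, a log2 change of 0.94 ± 0.13 (0.00653, and 0.0756 with only the groups compared). RELA read 30.2, 27.3 and 27.4 FPKM in SG and 37.0, 34.3 and 34.2 FPKM in TNFSG. For RELA the log2 change of 0.30 ± 0.07 did not pass (adjusted p 0.0979, 95% interval 0.14 to 0.47), and it passed only when loci had to reach 5 FPKM (0.0497).

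Among the inhibitors, NFKBIA read 11.0, 13.7 and 11.4 FPKM in SG and 141, 139.9 and 134.8 FPKM in TNFSG. Its log2 change of 3.43 ± 0.10 again had the fourth lowest p of all loci (adjusted p 1.81e-07). NFKBIB read 28.7, 33.1 and 33.3 FPKM in SG and 53.9, 53.2 and 55.8 FPKM in TNFSG (0.76 ± 0.08, adjusted p 0.00105). The locus of NFKBIE and SLC35B2 read 39.7, 35.2 and 35.7 FPKM in SG and 71.4, 63.7 and 65.7 FPKM in TNFSG (0.84 ± 0.10, adjusted p 0.00181). These classical inhibitors thus kept to separate ranges without and with TNF in every library of the pair of groups. BCL3 read 3.02, 2.09 and 2.20 FPKM in SG and 26.3, 25.9 and 23.0 FPKM in TNFSG (2.93 ± 0.17, adjusted p 1.85e-05). The locus of NFKBIZ and NXPE3 read 10.5, 15.4 and 13.7 FPKM in SG and 27.1, 24.3 and 24.1 FPKM in TNFSG (0.90 ± 0.23, adjusted p 0.108). The higher locus of NFKBIZ alone read 5.34, 4.12 and 5.16 FPKM in SG and 17.7, 16.4 and 20.5 FPKM in TNFSG. Its log2 change of 1.71 ± 0.19 passed (adjusted p 0.0015), while that of the lower locus of NFKBIZ alone did not (0.73, adjusted p 0.166).

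**Figure D2:**
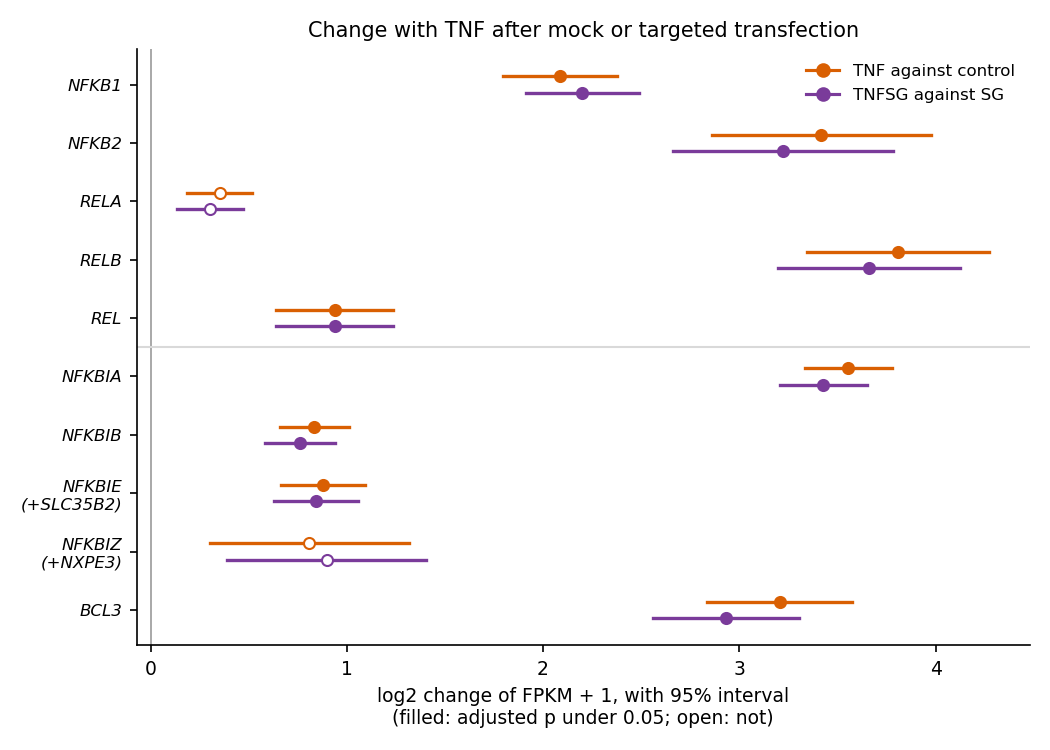
Log2 change of FPKM + 1 with its 95% interval for each member, in TNF against control and in TNFSG against SG, with 3 libraries per group. Filled points passed an adjusted p of 0.05, as 8 members did in each comparison, and open points (RELA and the shared locus of NFKBIZ) did not.

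SG against control and TNFSG against TNF asked what the targeted transfection did to the same genes, without and with TNF. No member passed in either comparison by limma, beside 0.17% of all loci (56) called in the first and 0.128% (42) in the second. Without TNF the members' log2 changes ran from -0.20 (NFKB1) to 0.48 (BCL3), with a median of 0.08, which equals the median of all loci tested (0.08). The lowest adjusted p was 0.361, and 1 member, BCL3, had an unadjusted p under 0.05 (0.0157), as did 9.86% of all loci tested (3239). BCL3 read 1.16 to 2.06 FPKM in control and 2.09 to 3.02 FPKM in SG, and its 95% interval ran from 0.11 to 0.86. With both loci of the symbol BCL3 summed the change was 0.76 (adjusted p 0.378). The widest intervals belonged to NFKB2 (-0.30 to 0.82) and to the locus of NFKBIZ and NXPE3 (-0.44 to 0.57), and the narrowest to RELA (-0.07 to 0.26) and NFKBIB (-0.21 to 0.14).

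With TNF the log2 changes ran from -0.13 (REL) to 0.21 (BCL3), with a median of 0.04, and the lowest adjusted p was 0.745. With both BCL3 loci summed, BCL3 stood at 0.63 (adjusted p 0.525). No member had an unadjusted p under 0.05, beside 9.11% of all loci tested. NFKBIA differed by 0.01 (95% interval -0.21 to 0.23) and NFKB1 by -0.09 (-0.38 to 0.20). NFKB2 differed by 0.06 (-0.50 to 0.62) and RELB by 0.09 (-0.37 to 0.55). NFKBIB stood at 55.9 to 60.6 FPKM in TNF and 53.2 to 55.8 FPKM in TNFSG, and its log2 change was -0.11 (-0.29 to 0.07). These intervals bound the size of a difference and do not show that the groups are alike.

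The interaction, the log2 change of TNFSG against SG minus that of TNF against control, tested whether the TNF response of a member differed after the targeted transfection. No member passed by limma, none had an unadjusted p under 0.05 (3.75% of all loci did), and 0.00913% of all loci (3) were called. The estimates ran from -0.27 for BCL3 (95% interval -0.80 to 0.25) to 0.11 for NFKB1 (-0.29 to 0.52). For NFKBIA the estimate was -0.13 (-0.44 to 0.19), a small part of its TNF response of 3.56. Comparisons that share a group of libraries, such as TNF against control and SG against control, are not independent of each other.

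**Figure D3:**
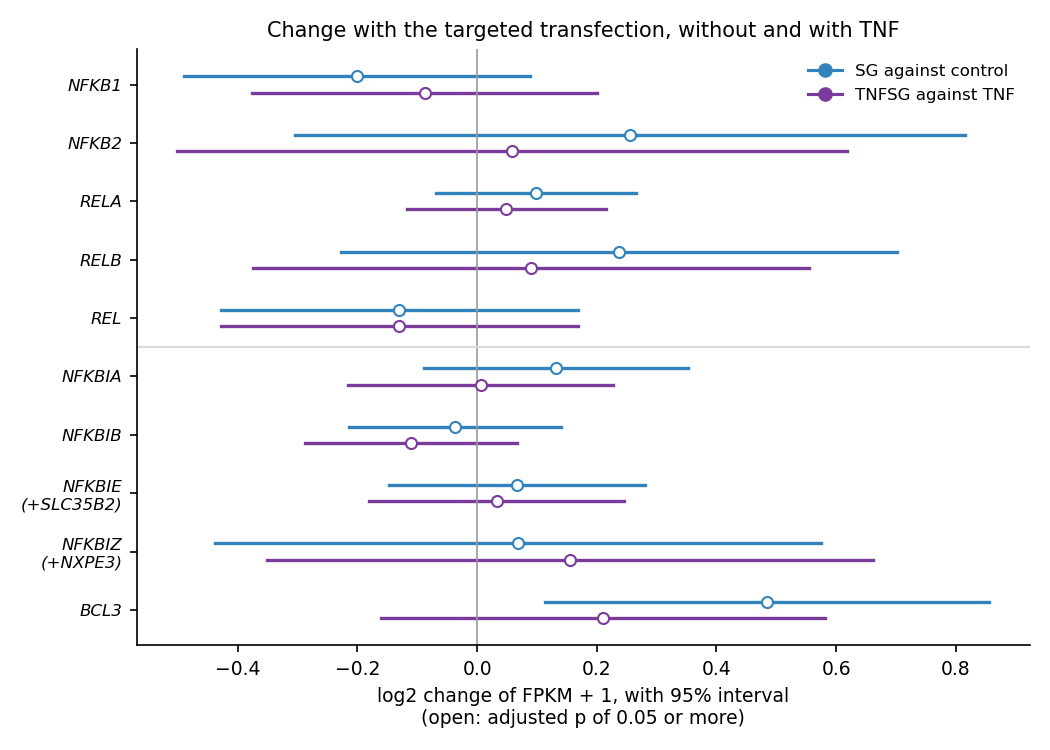
Log2 change of FPKM + 1 with its 95% interval for each member, in SG against control and in TNFSG against TNF, with 3 libraries per group. All points are open because no member passed an adjusted p of 0.05, and BCL3 in SG against control (0.48) is the point whose interval does not reach 0.

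Order of level among the members changed with TNF. In control the locus of NFKBIE and SLC35B2 (35.2 ± 2.40 FPKM) and NFKBIB (32.5 ± 2.48) were highest and their libraries overlapped, followed by RELA (26.4 ± 1.57). The locus of NFKBIZ and NXPE3 (12.8 ± 3.63), NFKB1 (10.4 to 13.9 FPKM) and NFKBIA (10.9 ± 1.27) came next and overlapped as neighbours. NFKB2 (5.01 ± 1.41) overlapped REL (4.15 ± 0.463), and RELB (2.35 ± 0.775) overlapped BCL3 (1.47 ± 0.507), the lowest. In TNF, NFKBIA (138 ± 4.98) was highest and clear of the others. The locus of NFKBIE and SLC35B2 (65.7 ± 7.80), NFKB2 (63.6 ± 18.0), NFKBIB (58.7 ± 2.51) and NFKB1 (53.8 ± 3.29) followed, each overlapping its neighbour. RELB (45.3 ± 4.57) lay above RELA (34.0 ± 2.03) with no overlap, where in control it had been 9th of 10. The locus of NFKBIZ and NXPE3 (22.8 ± 4.67) overlapped BCL3 (21.6 ± 2.54), and REL (8.85 ± 0.400) was lowest. SG had the order of control except that NFKBIA stood before NFKB1, as overlapping neighbours, and TNFSG had the order of TNF.

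Makeup of the subunit RNA shifted with these levels, which is described here without a test. The 5 subunits summed to 49.9 ± 4.84 FPKM in control and 206 ± 24.7 FPKM in TNF. RELA made up 53.1% ± 3.18 of the sum in control and 16.7% ± 2.16 in TNF. NFKB2 went from 10.0% ± 2.62 to 30.6% ± 4.80 and RELB from 4.64% ± 1.09 to 22.1% ± 1.15, while NFKB1 was 23.9% ± 1.20 and 26.3% ± 1.99. The ratio of RELB to RELA was 0.0881 ± 0.0236 in control and 1.34 ± 0.176 in TNF. Its values in SG (0.105 ± 0.0335) and TNFSG (1.37 ± 0.0532) lay close to those of the mock-transfected groups. NFKB2 over NFKB1, the ratio of the precursors, was 0.420 ± 0.118 in control and 1.17 ± 0.276 in TNF, beside 0.593 ± 0.0795 in SG and 1.28 ± 0.121 in TNFSG.

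The 5 IkB members summed to 92.8 ± 6.20 FPKM in control and 307 ± 15.7 FPKM in TNF. NFKBIA went from 11.7% ± 0.830 of that sum to 45.0% ± 0.727, and BCL3 from 1.59% ± 0.531 to 7.02% ± 0.472. NFKBIB went from 35.2% ± 4.11 to 19.2% ± 1.76, although its level rose. The summed IkB level over the summed subunit level was 1.87 (1.79 to 1.91) in control and 1.50 (1.38 to 1.59) in TNF. In SG it was 1.89 (1.63 to 2.14) and in TNFSG 1.50 (1.44 to 1.55). No library with TNF reached the range of the libraries without it, and these sums hold the RNA of SLC35B2 and NXPE3 as well.

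**Figure D4:**
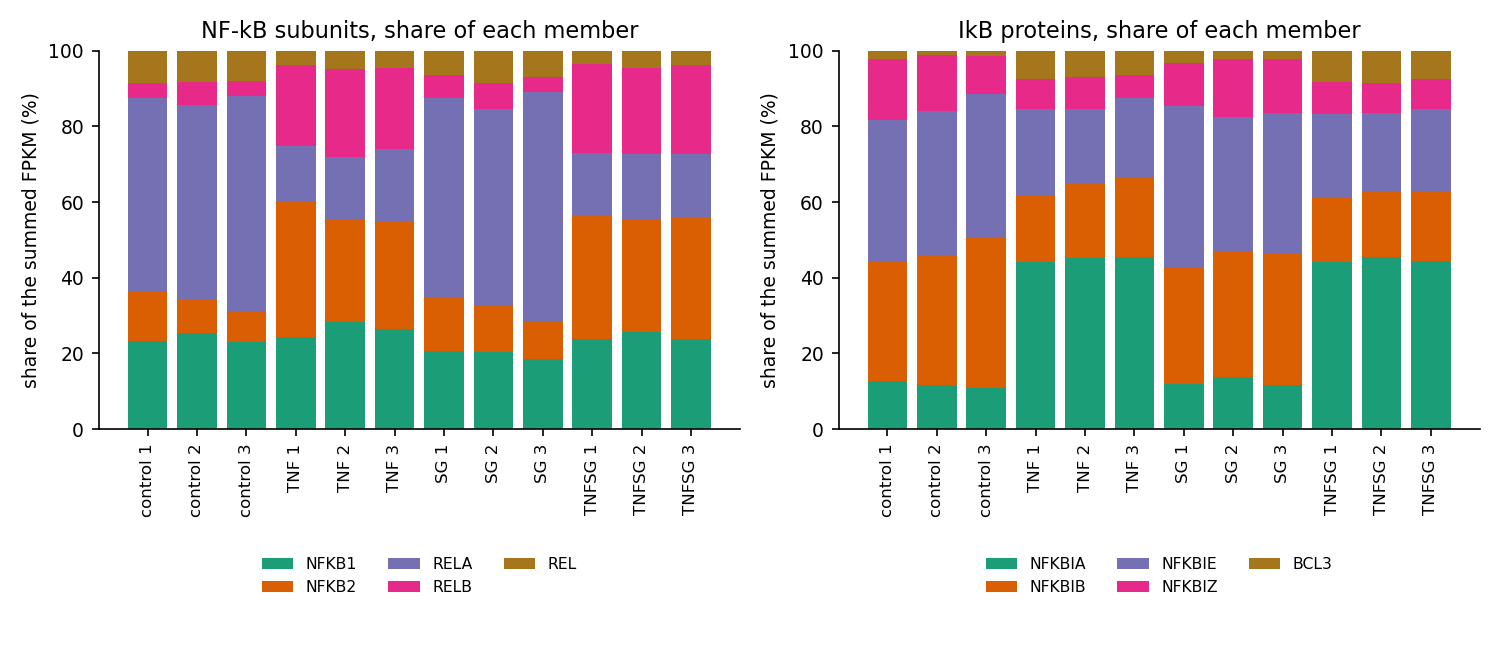
Share of each member, in percent of the summed FPKM of the 5 subunits (left) or of the 5 IkB proteins (right), in each of the 12 libraries. RELA takes 51.1% to 56.8% of the subunit sum in control and 14.6% to 18.9% in TNF, and NFKBIA takes 11.0% to 12.6% and 44.2% to 45.6% of the IkB sum.

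Other genes of the pathway were read from a list of 36 symbols, 23 upstream (receptor, adaptors, ligases, kinases and co-activators) and 13 of feedback (deubiquitinases, inhibitors and their partners). The upstream gene RNF31 had no locus of that name, which leaves 35. In TNF against control 9 of 35 rose and none fell, beside 1.18% of all loci that rose, with a median log2 change of 0.16. With a filter at 5 FPKM 8 of 33 rose and 2 fell, and with only the groups compared 6 rose and none fell. In TNFSG against SG 11 of 35 rose and none fell, beside 1.37% of all loci, with a median of 0.13. Of the 13 feedback genes 6 and 7 rose in these comparisons, and of the 22 upstream genes 3 and 4. TNFAIP3 encodes A20, a ubiquitin-editing enzyme that shuts signalling down. It read 2.03, 1.98 and 1.48 FPKM in control and 42.1, 38.3 and 35.8 FPKM in TNF (log2 change 3.81 ± 0.15, adjusted p 2.16e-06). TNIP1, a partner of A20, read 28.8, 31.0 and 30.1 FPKM in control and 92.8, 79.9 and 80.3 FPKM in TNF (1.46 ± 0.09, adjusted p 3.05e-05). Both thus separated the groups fully, as the members above did. BIRC3, a ubiquitin ligase of the receptor complex, read 0.157, 0.473 and 0.268 FPKM in control and 14.1, 8.77 and 10.6 FPKM in TNF (3.21 ± 0.20, adjusted p 3.2e-05). TRAF1, an adaptor of the same complex, went from 0.0870 ± 0.0266 to 3.04 ± 0.541 FPKM (1.89 ± 0.19, adjusted p 0.000792).

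The other genes of the list that rose in TNF against control were named after their values were seen. The deubiquitinase CYLD changed by 1.34 ± 0.15 (log2, adjusted p 0.0015) and the ribonuclease ZC3H12A by 1.13 ± 0.13 (0.00229). The adaptor TRAF3 changed by 0.93 ± 0.10 (log2, adjusted p 0.00133), the kinase IKBKB by 0.80 ± 0.11 (0.00544) and BTRC, the ligase subunit that recognises phosphorylated IkB, by 0.56 ± 0.11 (0.0326). IKBKB read 17.9, 18.5 and 17.4 FPKM in control and 34.2, 32.0 and 29.7 FPKM in TNF, while the locus of its partner kinase CHUK, which also carries the name ERLIN1, read 36.6, 39.8 and 39.8 FPKM and then 31.1, 30.7 and 28.9 FPKM. The change of that shared locus was -0.35 ± 0.08 and did not pass (adjusted p 0.0906). No gene of the list passed by limma in SG against control, TNFSG against TNF or the interaction, where 5, 3 and 2 of 35 (14.3%, 8.57% and 5.71%) had an unadjusted p under 0.05, beside 9.86%, 9.11% and 3.75% of all loci. One of these, also named after its values were seen, was NFKBID, which encodes a further nuclear IkB protein. Its locus also carries the name AD000864.6, and the reads of both cannot be separated. That locus read 5.31, 6.92 and 5.53 FPKM in control, 8.02, 6.61 and 5.59 FPKM in TNF, 2.36, 2.98 and 4.19 FPKM in SG and 6.44, 8.85 and 9.42 FPKM in TNFSG. The shared locus rose in TNFSG against SG (1.15 ± 0.20, adjusted p 0.0216) and not in TNF against control (0.16 ± 0.20, 0.864), and the interaction of 1.00 ± 0.29 did not pass (p 0.00652, adjusted p 1).

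The genes whose pattern was most like each called member were sought over the 12 libraries, by Pearson r of log2(FPKM + 1) among loci with a single name and a mean of at least 5 FPKM. These correlations describe the libraries only, since all such genes share the split between libraries with and without TNF. NFKB1 was nearest to CXCL8 (r = 0.995), a chemokine, then PMAIP1 and MAP3K8. NFKB2 was nearest to KREMEN2 (0.995), CLIP2 and TNFAIP3, and RELB to TNFAIP3 (0.998), NFKBIA (0.995) and IL27RA. NFKBIA was nearest to the receptor chain IFNGR2 (0.997), the adhesion molecule ICAM1 (0.997) and SDC4, and BCL3 to NINJ1 (0.997), SLC2A6 and the surface protein CD83. The locus of NFKBIE and SLC35B2 was nearest to TNFRSF4 (0.994), SLC2A6 and NFKB2, and NFKBIB to GRAMD4P7 (0.988), CXCL3 and MAP3K8. REL was nearest to TAL2 (0.990), SQSTM1 (0.983) and DUSP10 (0.982).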

How the data were processed

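The deposited table holds FPKM values, 1 column per library and 1 row per locus, and all of its 12 sample columns were matched to the labels by name. Per the labels' protocols the authors sequenced single reads of 50 bases from Trizol-extracted RNA. Per the submitters' processing notes the tools were TopHat2 2.0.14, Bowtie2 2.2.9 and Cufflinks, on hg38. The Cufflinks version is not given in the sources used here, nor is the annotation release. Of 38272 loci 9035 had no name and 839 carried several names. Reads of genes that share a locus, or of antisense genes, cannot be separated, and FPKM carry no read totals, so count models were not used.

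The analysis took log2(FPKM + 1) of each value and kept 32866 loci, those that reached 1 FPKM in 3 or more libraries, and 1 mean per group was fitted with limma 3.58.1 in R 4.3.3 (eBayes with a trend, two-sided, Benjamini-Hochberg over all loci, threshold 0.05). The fit was tested on simulated data. The 10 members and the pathway list were chosen with earlier results of these data known. All members are named. Of the pathway list up to 4 called genes of lowest p in TNF against control are named by rule, others of it only after their values were seen, and per called member the 3 loci of highest Pearson r. Alternatives were median-ratio scaling, pseudocounts of 0.1 and 0.5, a filter at 5 FPKM or none, quantile normalization, no trend, only the groups compared, the replicate number as a block, the sum of all loci of a symbol, and each library left out. Promoter sequences are from RefSeq (GRCh38.p14) and gene positions from GENCODE (hg38). Python 3.11.15, numpy 2.4.6, pandas 2.3.3 and matplotlib 3.10.9 were used.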

Additional observations from a re-analysis of the deposited data

Results flagged for a closer look

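Of the 10 members, NFKBIZ and BCL3 also stand on loci that the comparisons do not use. In 6 cases there, all 3 libraries of a group were above all 3 control libraries. The share of all loci separated in this way is not given here. The higher locus named for NFKBIZ alone averaged 15.5 FPKM in TNF and 18.2 FPKM in TNFSG, against 4.81 FPKM in control. The lower locus named for NFKBIZ alone averaged 2.55 FPKM in TNF and 1.78 FPKM in TNFSG, and 0.666 FPKM in SG, against 0.248 FPKM in control. Read counts were recovered from the whole-read steps of its values, with the smallest value taken as 1 read, so a common multiple of them is possible. On that basis it held 29, 23 and 29 reads in TNF, 26, 22 and 12 in TNFSG, 5, 9 and 6 in SG and 5, 1 and 2 in control. Its log2 change passed in TNF against control (1.51, limma adjusted p 0.00565) and not in TNFSG against SG (0.73, 0.166) or SG against control (0.42, 0.555), and the interaction did not pass (p 0.0244, adjusted p 1).

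A second BCL3 locus averaged 13.7 FPKM in TNFSG and was listed at 0 in all control libraries. With its smallest value above 0 again taken as 1 read, it held 14, 6 and 2 reads in TNFSG, 1, 3 and 0 in TNF and 0, 1 and 0 in SG. Neither TNFSG against TNF (log2 change 2.16, limma adjusted p 0.44) nor TNFSG against SG (3.06, 0.113) passed.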

How the results depend on the processing

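In the TNF comparisons 8 members were called with any 1 library left out, and between 7 and 9 over the other alternatives, where RELA, REL and NFKBIZ changed side as given above. The labels do not say whether the replicate number shared across groups pairs the libraries. Same-numbered libraries' deviations correlated by 0.0065 to 0.138 (median 0.0225), over 0.1 in 1 of 18 pairs. Those of differently numbered libraries correlated by -0.0932 to 0.0425 (median -0.0165, 36 pairs). Of 12 libraries 7 correlated best with their own number. Same-numbered libraries were thus slightly more alike, and pairing was not tested. With the replicate block 8, 8, 0, 0 and 0 members were called in TNF against control, TNFSG against SG, SG against control, TNFSG against TNF and the interaction, and calls over all loci went from 478 to 831, 540 to 843, 56 to 71, 42 to 59 and 3 to 2.
The pathway list had 8 or 9 and 9 or 10 calls in the TNF comparisons with any 1 library left out, and 6 to 10 and 9 to 11 over the other alternatives. Scaling moved the median of all loci in SG against control from 0.08 to 0.02 (median-ratio) and -0.03 (quantile), and in TNFSG against TNF from 0.08 to 0.03 and -0.03, and small changes of the members with the targeted transfection changed sign or size with it. The members then ran from -0.28 to 0.43 and -0.31 to 0.34 in the first comparison and from -0.19 to 0.14 and -0.24 to 0.14 in the second. With a pseudocount of 0.1, BCL3 in SG against control was 0.72 and its interaction -0.50. In SG against control NFKBIE went to -0.0155 and -0.00711 and NFKBIZ to -0.00928 and -0.0398. In TNFSG against TNF RELA went to -0.0178 and -0.00963, NFKBIA to -0.063 and -0.018, NFKBIE to -0.035 and -0.036, and NFKB2 to -0.00871 with median-ratio scaling. The interaction of REL, near 0, became 0.0168 and 0.00793 with pseudocounts of 0.1 and 0.5, 0.00412 with median-ratio scaling and 0.059 with quantile normalization. With all loci of a symbol summed, the ratio of IkB to subunit FPKM was 1.97 in control and 1.66 in TNFSG. Median-ratio scaling cannot change that ratio.
With single libraries left out, signs changed within these ranges. In SG against control they were -0.0994 to 0.0306 for NFKBIB and -0.17 to 0.21 for NFKBIZ. In TNFSG against TNF they were -0.06 to 0.28 for NFKB2, -0.0217 to 0.0298 for NFKBIA, -0.0209 to 0.13 for NFKBIE and -0.0197 to 0.25 for NFKBIZ. In the interaction they were -0.0142 to 0.21 for NFKB1, -0.40 to 0.0209 for NFKB2, -0.10 to 0.11 for REL, -0.0868 to 0.0609 for NFKBIE and -0.0880 to 0.33 for NFKBIZ. No member was called in these 3 comparisons under any alternative, and with 3 libraries per group differences inside the intervals above are not excluded. The cause of the changes of sign was not tested.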
